A study of Mus musculus with 6 samples.

Results

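A set of 10 genes that describe the state of the hepatic stellate cell was read in whole liver RNA of 3 mice labelled WT and 3 mice labelled Themis-KO. The genes were taken by symbol from a table of 25403 genes. Of these, 5 are genes of stellate cells in the resting liver or of their identity (Reln, Rgs5, Des, Hgf and Ecm1), and the other 5 encode contractile proteins that the cells make when they become activated (Acta2, Tagln, Myl9, Cnn1 and Tpm2). WT mice were wild-type C57BL6/J animals. Themis-KO mice were bred to lack Themis, a T cell receptor signalling protein, in the whole body, so that no single cell type carried the deletion alone. Mice of both genotypes ate the same MASH diet (AMYLIN liver NASH diet), for 3 months from an age of 10 to 12 weeks. Fat gave 40 kcal% of this diet and fructose 20 kcal%, and cholesterol made up 2% of it. No chow-fed livers were analysed here, and the labels give neither sex nor batch for the 6 livers, while the study describes its MASH-fed WT and Themis-KO mice as male.

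Hepatic stellate cells lie between the hepatocytes and the sinusoidal endothelium and store vitamin A while quiescent. In injured liver they can turn into myofibroblasts, which lose the vitamin A droplets, secrete collagen and build contractile bundles of smooth muscle actin, myosin and tropomyosin. Transcription of many contractile genes is driven by serum response factor (SRF) with its myocardin-related coactivators, at a short DNA element called the CArG box. Vascular smooth muscle, pericytes and portal fibroblasts make many of the same transcripts. In whole liver RNA, a change in the number of such cells and a change in the RNA made per cell cannot be told apart.

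The 6 libraries held between 20679642 and 25649767 estimated counts on genes. Themis did not separate the labels, at 8.07, 25.6 and 12.0 CPM (counts scaled to a common library size) in the WT livers and 8.63, 7.74 and 9.97 CPM in the Themis-KO livers (log2 fold change -0.79, SE 0.38, adjusted p = 0.199, edgeR). The sources used here do not say which exons were deleted, so this count is no check of the labels, and the genotypes below are those the labels give. WT replicates 1 and 2 stood apart from the other livers in mitochondrial reads, with 96.6% and 96.8% of the reads of the pair Gm28438 and mt-Nd3 assigned to Gm28438, against 2.20% to 3.26% in the other 4. Themis-KO replicate 3 stood nearer to the WT livers than its group mates did for several genes below, and values without it are given there.

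None of the 9 members that could be tested had an adjusted p under 0.05 between the genotypes (edgeR quasi-likelihood test, Benjamini-Hochberg adjustment over 14496 genes). Over all genes tested, 4.97% had an adjusted p under 0.05 and were higher in the Themis-KO livers, and 4.14% were lower. At an unadjusted p under 0.05, 2 members were higher (Rgs5 and Acta2) and 1 was lower (Tpm2), where 16.8% and 13.9% of all genes were. Every Themis-KO liver was above every WT liver for 1 member (Rgs5) and below every WT liver for 1 member (Tpm2), with 17.7% and 16.9% of all genes doing the same. The median log2 fold change was 0.22 over the 5 stellate cell genes and 0.41 over the 4 tested contractile genes, against 0.0095 over all genes.

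Per kilobase of exon, the members covered a wide range of levels in these livers. Ecm1 was highest at 32.0 CPM per kb and Rgs5 followed at 15.8. Tagln (6.76) and Tpm2 (6.08) came next with ranges over livers that overlapped. Acta2 (3.06), Reln (2.23), Myl9 (2.06) and Des (1.59) formed a group in which each overlapped its neighbour. Hgf lay below them at 0.725, and Cnn1 was last at 0.0675. Reln, which has a very long transcript, was therefore among the middle members per kilobase although its CPM was among the higher ones.

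**Figure D1:**
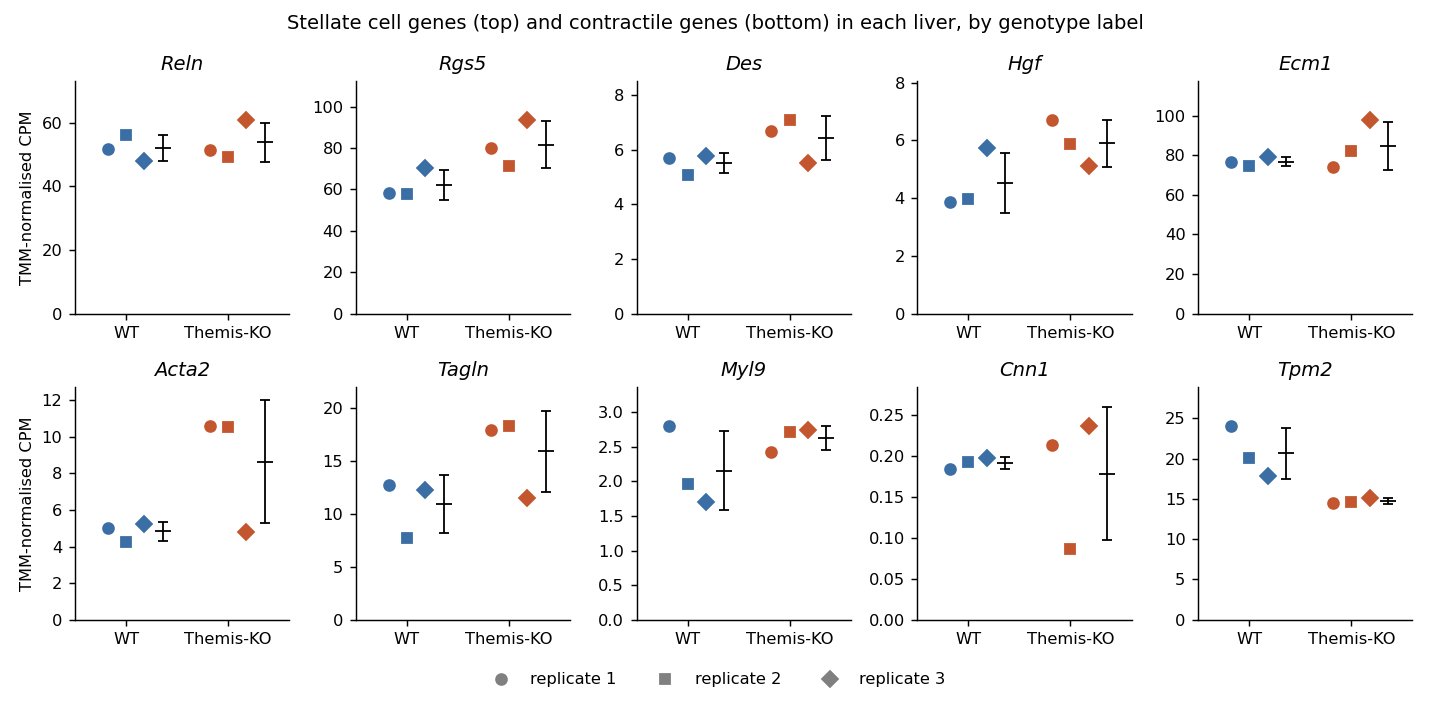
CPM after TMM scaling (y axis, from 0) of each of the 10 members in each of the 6 livers, by genotype label (x axis). Symbols mark replicates 1 to 3, and the black bar with whiskers is the mean ± SD of the 3 livers. Rgs5 was higher and Tpm2 lower in each Themis-KO liver, and Acta2 and Tagln were high in Themis-KO replicates 1 and 2 but not in replicate 3.

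Among the stellate cell genes, Rgs5 showed the clearest separation of the labels. Rgs5 (GRCm38, chromosome 1, 169655501 to 169695813, plus strand) encodes a regulator of G protein signalling that also marks pericytes. It stood at 58.3, 58.0 and 70.3 CPM in the WT livers and at 80.0, 71.4 and 93.7 CPM in the Themis-KO livers. The groups did not overlap, although WT replicate 3 came close to Themis-KO replicate 2. By edgeR the log2 fold change was 0.39 (SE 0.13, 95% interval 0.10 to 0.68, 1.31-fold) with an unadjusted p of 0.0147 and an adjusted p of 0.0850, and the exact two-sided permutation test gave p = 0.1, the smallest that 3 livers against 3 allow. Scaled by total counts alone, which moved the median of all genes to 0.147, Rgs5 was at 0.53 with an adjusted p of 0.0429 (edgeR). That scaling called 1449 of all genes higher, against 721 with TMM.

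Hgf encodes hepatocyte growth factor, which stellate cells supply to the MET receptor on hepatocytes (chromosome 5, 16553495 to 16620152, plus strand). Its CPM was 3.85, 3.98 and 5.72 in the WT livers and 6.71, 5.89 and 5.10 in the Themis-KO livers. The groups overlapped because WT replicate 3 was above Themis-KO replicate 3. Its log2 fold change was 0.38 (SE 0.20, 95% interval -0.09 to 0.85, adjusted p = 0.237, edgeR), and 0.59 without WT replicate 3. Hgf shares 484 exon bases with Gm43489 on the same strand, a gene that was also counted, and the effect on the Hgf counts was not tested. Des encodes desmin, an intermediate filament protein of stellate cells and muscle (chromosome 1, 75360329 to 75368579, plus strand). Its WT values were 5.69, 5.09 and 5.76 CPM and its Themis-KO values 6.67, 7.10 and 5.53 CPM, so that Themis-KO replicate 3 lay among the WT livers. This gave a log2 fold change of 0.22 (SE 0.15, 95% interval -0.13 to 0.57, adjusted p = 0.345, edgeR), and 0.14 without Themis-KO replicate 2.

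Reln and Ecm1 differed little between the labels. Reln encodes reelin, a secreted glycoprotein best known from brain development that stellate cells make in the liver (chromosome 5, 21884454 to 22344702, minus strand). It measured 51.6, 56.1 and 48.0 CPM in the WT livers and 51.3, 49.3 and 60.9 CPM in the Themis-KO livers, with overlapping groups and Themis-KO replicate 3 highest. The log2 fold change was 0.05 (SE 0.11, 95% interval -0.20 to 0.30, adjusted p = 0.763, edgeR), and it was -0.0025 without WT replicate 3 and -0.059 without Themis-KO replicate 3. Ecm1 encodes an extracellular matrix protein that keeps TGF-beta latent in the liver (chromosome 3, 95734147 to 95739569, minus strand). It measured 76.7, 74.4 and 79.0 CPM in the WT livers and 74.2, 82.2 and 98.0 CPM in the Themis-KO livers. Themis-KO replicate 1 was below each WT liver and replicate 3 above all others (log2 fold change 0.14, SE 0.11, 95% interval -0.11 to 0.40, adjusted p = 0.402, edgeR). The Ecm1 value was 0.012 without replicate 3 and 0.23 without replicate 1 of the Themis-KO livers.

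The contractile members are shown with their promoters because the CArG box is the element through which SRF acts on them. RefSeq promoter windows of GRCm38.p6, from 250 bases before to 50 bases after the start site, were given for 9 of the 10 members, and Tagln was not among them. Both strands were searched for the CArG box, CC and GG around a core of 6 A or T letters, and for a relaxed form with 1 G or C allowed in the core, which includes the strict form. Of all 32851 promoter windows, 1.63% held the strict form and 9.98% the relaxed form. Acta2 held 2 relaxed matches, beginning 84 and 34 bases before the start site, and Myl9 held 1 strict match at 161 bases and 1 relaxed match at 99 bases before it. The windows of Cnn1, Tpm2 and the 5 stellate cell genes held neither form. A match is a stretch of letters and not a measured binding site. Positions count from the RefSeq start site. For Acta2 the GENCODE gene span given below begins further upstream, so both Acta2 matches lie inside that span. The matches are in capitals within the surrounding bases, for Acta2 at chr19:34255378-34255487 on the minus strand and for Myl9 at chr2:156775273-156775394 on the plus strand.
Acta2: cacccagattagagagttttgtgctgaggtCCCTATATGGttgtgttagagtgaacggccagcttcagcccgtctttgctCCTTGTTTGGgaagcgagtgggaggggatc
Myl9: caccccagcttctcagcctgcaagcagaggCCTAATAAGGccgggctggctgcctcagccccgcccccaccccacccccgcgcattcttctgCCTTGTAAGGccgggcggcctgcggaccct

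Acta2 encodes alpha smooth muscle actin, the standard mark of the activated stellate cell (chromosome 19, 34241090 to 34255590, minus strand). It stood at 5.0, 4.22 and 5.25 CPM in the WT livers and at 10.6, 10.5 and 4.77 CPM in the Themis-KO livers. Themis-KO replicates 1 and 2 lay clearly above the WT livers, while replicate 3 lay among them, so the groups overlapped. Acta2 had a log2 fold change of 0.84 (SE 0.30, 95% interval 0.15 to 1.52, 1.79-fold, p = 0.0224, adjusted p = 0.105, edgeR), with a permutation p of 0.3 (exact, two-sided). Without Themis-KO replicate 3 the log2 fold change was 1.11 and the adjusted p 0.00294. With all 6 livers DESeq2 gave an adjusted p of 0.0402. By contrast, dropping Themis-KO replicate 1 lowered the log2 fold change to 0.66 (adjusted p = 0.2996, edgeR). Dropping replicate 2 of this genotype lowered it to 0.66 as well (adjusted p = 0.292, edgeR). The fits that omitted a WT liver gave 0.75 to 0.903, with an adjusted p of 0.163 to 0.255 (edgeR).

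Tagln encodes transgelin (SM22), an actin-binding protein of smooth muscle (chromosome 9, 45929619 to 45936058, minus strand), and its pattern over livers resembled that of Acta2. It stood at 12.8, 7.77 and 12.3 CPM in the WT livers and at 18.0, 18.3 and 11.5 CPM in the Themis-KO livers. Again Themis-KO replicates 1 and 2 were highest and replicate 3 lay within the WT range. Tagln had a log2 fold change of 0.54 (SE 0.24, 95% interval -0.01 to 1.09, adjusted p = 0.167, edgeR), and 0.71 with an adjusted p of 0.0328 without Themis-KO replicate 3, against 0.35 without WT replicate 2. Tagln shares 1241 exon bases with the antisense gene Gm48529 and 108 with Pcsk7 on the opposite strand, and whether the counting used strand is not given in the sources used here.

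Tpm2, which encodes beta-tropomyosin, went the other way (chromosome 4, 43514711 to 43523765, minus strand). It measured 24.0, 20.1 and 17.8 CPM in the WT livers and 14.4, 14.6 and 15.2 CPM in the Themis-KO livers. Each Themis-KO liver was below each WT liver, and the Themis-KO livers lay close together. The log2 fold change was -0.49 (SE 0.13, 95% interval -0.78 to -0.20, p = 0.00482, adjusted p = 0.0513, edgeR), with the smallest permutation p of 0.1 (exact, two-sided). This value lay at the edge of the threshold, and whether Tpm2 passed depended on the setting and the livers. The adjusted p was 0.0480 with RLE size factors, 0.0263 without a filter on low counts and 0.0156 in DESeq2. It was 0.0442 without WT replicate 3 and 0.0274 without Themis-KO replicate 3. By contrast, it was 0.128 to 0.165 whenever replicate 1 or 2 of either genotype was left out (edgeR). The log2 fold change then ran from -0.51 to -0.36. With total counts alone the adjusted p was 0.0818 (edgeR).

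Myl9 and Cnn1 were the least abundant contractile members. Myl9 encodes the regulatory myosin light chain of smooth muscle (chromosome 2, 156775420 to 156781658, plus strand) and measured 2.80, 1.97 and 1.70 CPM in the WT livers and 2.42, 2.71 and 2.74 CPM in the Themis-KO livers. WT replicate 1 was the highest liver of all, and the groups overlapped (log2 fold change 0.29, SE 0.23, 95% interval -0.25 to 0.82, adjusted p = 0.426, edgeR). The Myl9 value was 0.52 without WT replicate 1 and 0.13 without WT replicate 3. Cnn1 encodes calponin of smooth muscle (chromosome 9, 22099216 to 22109630, plus strand) and was too low to be tested, with 4, 4 and 5 counts in the WT livers and 5, 2 and 5 counts in the Themis-KO livers.

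**Figure D2:**
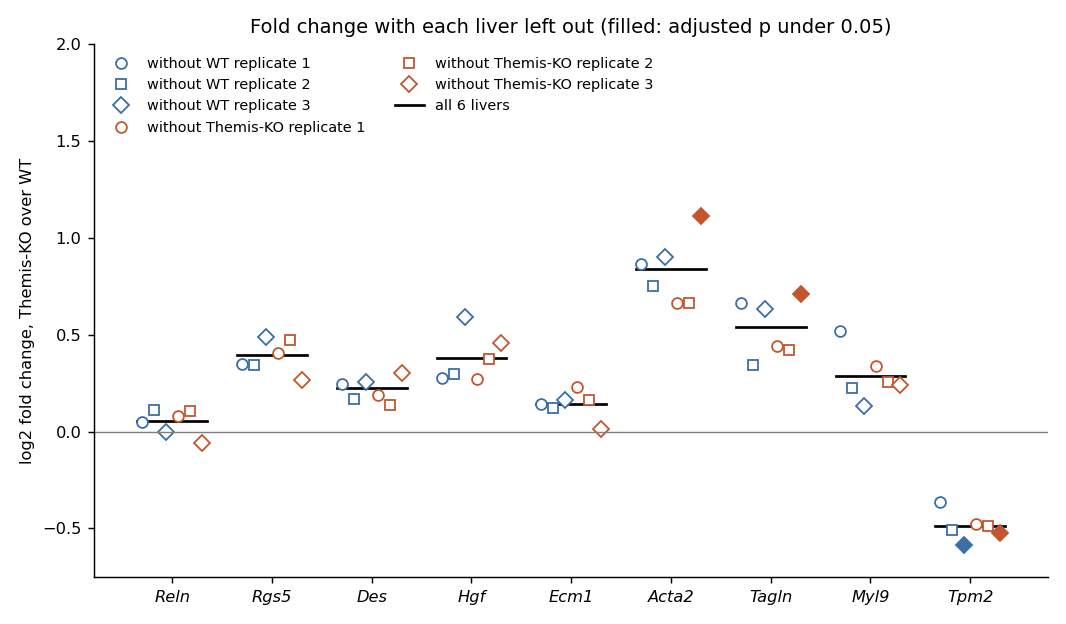
log2 fold change of Themis-KO over WT (y axis) for the 9 tested members (x axis) with each liver left out in turn (symbols) and with all 6 livers (black line), with filled symbols for an adjusted p under 0.05. Filled symbols appear for Acta2 and Tagln without Themis-KO replicate 3, and for Tpm2 without Themis-KO replicate 3 or WT replicate 3.

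The count of members that passed the threshold thus depended on the livers and settings used, and was highest without Themis-KO replicate 3. Without it, 3 contractile members passed (Acta2 and Tagln higher, Tpm2 lower), and 15.0% of all genes were called higher and 13.8% lower. DESeq2 on all 6 livers called 2 contractile members, Acta2 and Tpm2, where it called 8.82% of all genes higher and 7.52% lower. With the mitochondrial read type as a covariate, which leaves WT replicate 3 as the only WT liver of the type of the Themis-KO livers, the log2 fold changes were 0.72 for Acta2 (adjusted p = 0.583), 0.37 for Tagln (0.714), -0.27 for Tpm2 (0.552) and 0.22 for Rgs5 (0.652), all in edgeR. In the same fit Hgf was at 0.046 (adjusted p = 0.952) and Myl9 at 0.63 (0.531), against 0.38 and 0.29 without the covariate. The same 2 WT livers thus bear on each of these values, and their part in the differences was not tested.

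The contractile genes were then set against the stellate cell genes within each liver. The mean log2 CPM of the 5 contractile genes, with the untested Cnn1, minus that of the 5 stellate cell genes was -2.41, -2.73 and -2.78 in the WT livers and -2.54, -2.62 and -2.87 in the Themis-KO livers, a difference between the means of -0.037 that was smaller than the SD of either group (0.199 and 0.170). Without Cnn1 the difference was 0.042, again smaller than the SDs of 0.245 and 0.273, so its sign rested on the few Cnn1 counts. Ratios of single pairs of genes were also taken, on counts and not on the log2 scale. The ratio of Acta2 to Des counts was 0.879, 0.830 and 0.911 in the WT livers and 1.59, 1.48 and 0.863 in the Themis-KO livers. The ratio of Tpm2 to Acta2 counts was 4.81, 4.76 and 3.39 in the WT livers and 1.37, 1.38 and 3.18 in the Themis-KO livers. The ratio of Acta2 to Rgs5 counts was 0.0858, 0.0728 and 0.0747 in the WT livers and 0.132, 0.148 and 0.0509 in the Themis-KO livers. For Tagln over Des it was 2.24, 1.53 and 2.14 against 2.69, 2.58 and 2.09. In each ratio Themis-KO replicates 1 and 2 lay apart from the WT livers. Themis-KO replicate 3 lay within the WT range for Acta2 over Des and Tagln over Des. For Acta2 over Rgs5 it lay below each WT liver, while replicates 1 and 2 lay above.

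Each contractile member belongs to a family with widely expressed relatives, which most liver cells make for their ordinary cytoskeleton. Of 10 such paralogs, 6 rose in the Themis-KO livers, none fell, and the median log2 fold change was 0.65. For this list and those below, 4.97% of all genes tested were called higher and 4.14% lower. RSEM divides reads that fit several genes among them, so values of actin, myosin light chain and tropomyosin genes may depend on each other. Among the actins, Actg1 (gamma cytoplasmic actin) went from 139, 159 and 211 CPM to 493, 481 and 218 CPM (log2 fold change 1.23, SE 0.31, adjusted p = 0.0474, edgeR), and Actb (beta actin) from 499.6, 540.0 and 639 CPM to 943, 943 and 732 CPM (0.64, SE 0.14, adjusted p = 0.0375). Themis-KO replicate 3 was the lowest of its group for both, and for Actg1 it was only just above WT replicate 3.

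Tagln2 rose from 31.1, 25.9 and 38.2 CPM to 88.2, 82.4 and 52.8 CPM (log2 fold change 1.23, SE 0.21, adjusted p = 0.0241, edgeR). Myl12a, a non-muscle regulatory light chain, rose by a log2 fold change of 0.73 (adjusted p = 0.0302), and Cnn2, the calponin of non-muscle cells, by 0.65 (adjusted p = 0.0386). Myl12b (0.28, adjusted p = 0.113), the essential light chain Myl6 (0.22, adjusted p = 0.116) and Cnn3 (0.08, adjusted p = 0.553) did not pass. These calls depended on single livers. Whenever replicate 1 or 2 of either genotype was left out, none of the 10 paralogs passed in edgeR, and over all genes 8 to 27 were then called higher and 12 to 57 lower. Without replicate 3, by contrast, 3 passed where the WT liver and 7 where the Themis-KO liver was left out. Without Themis-KO replicate 3, here and in the lists below, 15.0% of all genes were called higher and 13.8% lower. Without WT replicate 3, 481 genes over all were called higher and 369 lower. None of the paralogs passed with the mitochondrial covariate or with the replicate block.

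Tropomyosins form filaments along actin, and the other genes of the family had the opposite sign to Tpm2. Tpm4 measured 48.4, 37.9 and 58.4 CPM in the WT livers and 108, 112 and 61.7 CPM in the Themis-KO livers (log2 fold change 0.96, SE 0.24, adjusted p = 0.0494, edgeR). Tpm3 was at 0.48 with an adjusted p of 0.0508. Tpm1, the alpha-tropomyosin gene, rose from 64.7, 75.1 and 86.5 CPM to 135, 136 and 110 CPM (log2 fold change 0.75, SE 0.13, adjusted p = 0.0248). For Tpm1 and Tpm4 each Themis-KO liver was above each WT liver, whereas for Tpm2 each was below. Tpm1 and Tpm4 lost their calls whenever replicate 1 or 2 of either genotype was left out, and Tpm4 also without WT replicate 3. The difference between the genes was not tested.

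**Figure D3:**
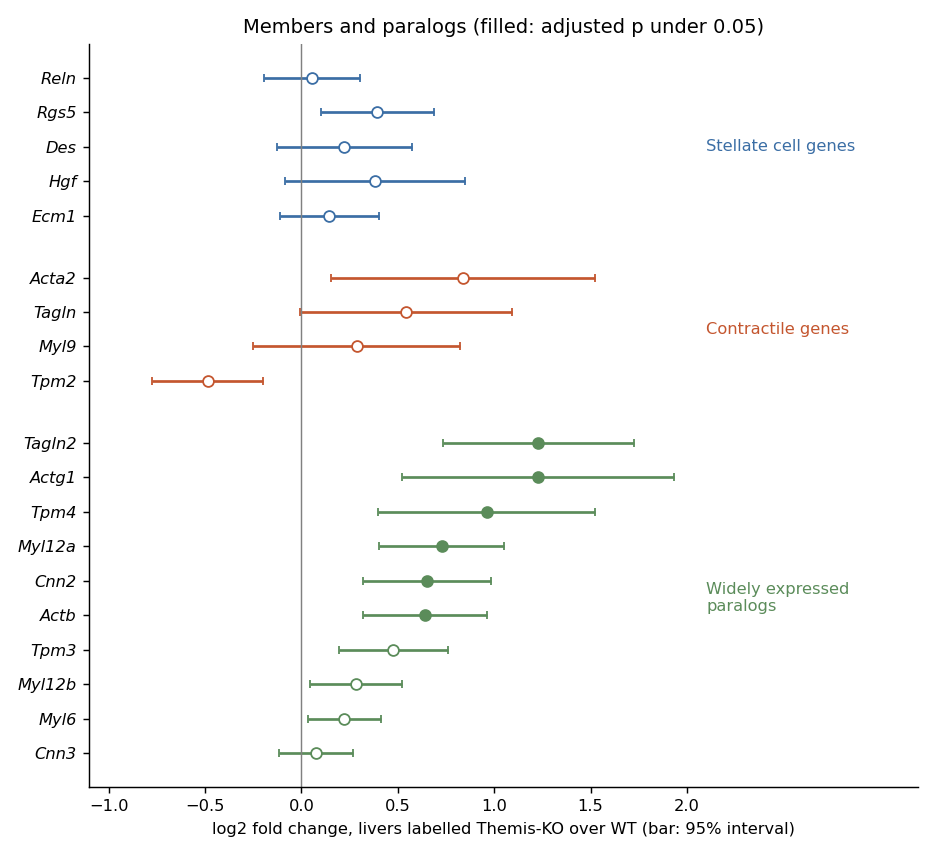
log2 fold change of livers labelled Themis-KO over WT (x axis) with 95% intervals for the tested stellate cell genes, contractile genes and widely expressed paralogs (y axis), with filled points for an adjusted p under 0.05. No member is filled, 6 of 10 paralogs are, and Tpm2 alone lies below 0.

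Of 11 other smooth muscle genes tested, Tpm1 and Filip1l rose and none fell, with a median log2 fold change of 0.23. Cald1, which encodes the actin-binding protein caldesmon, was the most abundant at 323 to 371 CPM in the WT livers and 400 to 424 CPM in the Themis-KO livers (0.26, adjusted p = 0.0965, edgeR). Mylk, the myosin light chain kinase gene, had a negative value (-0.48, adjusted p = 0.125), with Themis-KO replicate 3 at 115 CPM inside the WT range and replicates 1 and 2 at 79.8 and 71.0 CPM below it. Myh11, the defining heavy chain of mature smooth muscle, was at 5.32, 3.02 and 4.58 CPM against 3.91, 4.47 and 4.53 CPM (-0.0036, adjusted p = 0.993), with overlapping groups. The calls for Tpm1 and Filip1l were lost whenever replicate 1 or 2 of either genotype was left out. Without Themis-KO replicate 3 the list had 3 higher and 1 lower (Mylk), where 15.0% of all genes were higher and 13.8% lower.

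Of the 6 tested genes for SRF, its coactivators and other transcription factors, 2 rose (edgeR). They were Tead1, a TEAD factor and not a coactivator of SRF (log2 fold change 0.85, adjusted p = 0.0429), and Mrtfb, a myocardin-related coactivator (0.59, adjusted p = 0.0398). Srf itself was at 13.5, 13.1 and 14.2 CPM in the WT livers and 20.5, 19.2 and 14.3 CPM in the Themis-KO livers (0.41, adjusted p = 0.107, edgeR), so Themis-KO replicate 3 stood at the WT level. Myocd, the coactivator of smooth muscle, had at most 3 counts in every liver. Elk4, a partner of SRF and the most abundant gene of the list, was at -0.08 (adjusted p = 0.551). Both calls were lost whenever replicate 1 or 2 of either genotype was left out, and that of Tead1 also without WT replicate 3.

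Of 16 other identity genes, only Dcn passed, which encodes the matrix proteoglycan decorin and went from 149, 170 and 178 CPM to 209, 221 and 223 CPM (log2 fold change 0.40, SE 0.09, adjusted p = 0.0423, edgeR). The median over these 16 genes was 0.14, and the call for Dcn held only without Themis-KO replicate 3 among the 6 fits that left out a liver. In that fit 4 of the genes were called higher (Dcn, Ngfr and Nes among them) and 3 lower (Lhx2, Vipr1 and Angptl6). Over all genes 15.0% were called higher and 13.8% lower in the same fit, and the median over the 16 genes was 0.00027. Lrat, the enzyme that makes retinyl esters for storage, was at 31.5, 30.04 and 36.5 CPM against 34.0, 39.6 and 33.2 CPM (0.12, adjusted p = 0.476), with overlapping groups. Colec11 was at 0.25 (adjusted p = 0.239) and Vipr1 at -0.26 (adjusted p = 0.516).

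Of 20 tested genes of stellate cell activation and matrix, 14 rose and none fell, all 20 had a positive fold change, and the median was 0.87. Col3a1, a fibrillar collagen, went from 80.4, 88.5 and 93.5 CPM to 187, 165 and 151.4 CPM (log2 fold change 0.94, SE 0.11, adjusted p = 0.00936, edgeR), and Col1a2 rose by 1.00 (SE 0.11, adjusted p = 0.00936). Timp1, an inhibitor of matrix metalloproteinases, had the largest change among those that passed, from 0.872, 0.768 and 1.62 CPM to 4.89, 4.52 and 2.13 CPM (1.803, adjusted p = 0.0386). Vim, the intermediate filament gene vimentin, went from 32.4, 27.5 and 38.8 CPM to 75.8, 66.5 and 41.5 CPM (0.90, adjusted p = 0.0480), and Themis-KO replicate 3 again lay nearest to the WT livers. The count of 14 fell to 1 without WT replicate 1, to 2 without Themis-KO replicate 1, and to 4 without WT replicate 2 or Themis-KO replicate 2, and it was 10 without WT replicate 3 and 19 without Themis-KO replicate 3. It was 19 in DESeq2, 2 with the replicate block and 0 with the mitochondrial covariate.

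**Figure D4:**
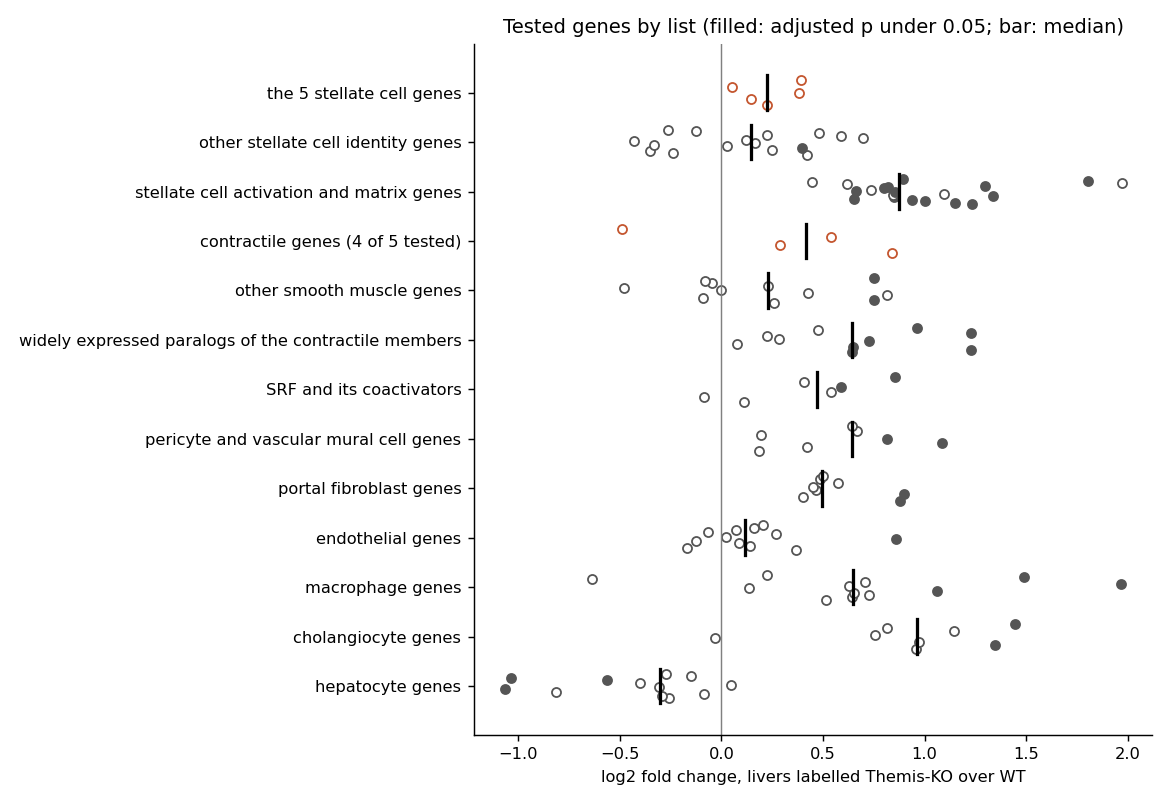
log2 fold change of livers labelled Themis-KO over WT (x axis) of each tested gene (points) of the lists drawn (y axis), filled for an adjusted p under 0.05, with a bar at the median. The lists of HGF and reelin partners, mesothelial genes and skeletal muscle genes are not drawn. The activation and matrix genes all lie above 0 with a median of 0.87, while the 5 stellate cell genes have a median of 0.22 and no filled point.

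Of 9 tested partners of the secreted members HGF and reelin, Met and Hgfac fell and St14 rose. Met, the receptor of HGF, went from 73.7, 62.7 and 65.3 CPM to 46.7, 47.1 and 47.4 CPM (log2 fold change -0.51, SE 0.09, adjusted p = 0.0230, edgeR), with the groups well apart. Hgfac, a serine protease that activates HGF, went from 179, 168 and 158 CPM to 113, 106 and 132 CPM (-0.53, SE 0.11, adjusted p = 0.0306). Hpn, another protease that activates HGF, was at -0.35 (adjusted p = 0.0750), and St14, the gene of matriptase, rose by 1.21 (adjusted p = 0.0337) from no more than 1.78 CPM. Spint2, an inhibitor of such proteases, was at 0.08 (adjusted p = 0.566). All 3 calls were lost whenever replicate 1 or 2 of either genotype was left out, and that of St14 also without WT replicate 3.

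Cells other than stellate cells express several members, and their marker genes were read in the same way. Of 7 tested pericyte and mural cell genes, Kcnj8 (log2 fold change 1.09, adjusted p = 0.0300, edgeR) and Mcam (0.81, adjusted p = 0.0337) rose, and the summed level of all 11 listed genes was 52.5 to 57.4 CPM in the WT livers and 71.4 to 79.4 CPM in the Themis-KO livers, with Cspg4 and Higd1b at 3 counts or fewer in every liver. Abcc9, the most abundant of them, was at 0.19 (adjusted p = 0.280). Of 8 tested portal fibroblast genes, Eln (0.90, adjusted p = 0.0241) and Cd34 (0.88, adjusted p = 0.0442) rose, with a summed level of 30.8 to 32.9 CPM against 46.3 to 51.6 CPM over 11 genes, and Entpd2, the most abundant, was at 0.47 (adjusted p = 0.134). These 4 calls were lost whenever replicate 1 or 2 of either genotype was left out, and those of Mcam and Cd34 also without WT replicate 3. Rgs5, Acta2 and Tagln are expressed by these cells as well, and the part of these cells in the members' values was not tested.

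Mesothelial genes were low throughout, with none of 4 tested passing in edgeR, none at an unadjusted p under 0.05, none in DESeq2 and a summed level of 3.58 to 6.23 CPM against 5.34 to 9.26 CPM over 7 genes. Of 16 skeletal muscle genes, 11 were listed in the table, 7 of these had at most 3 counts in every liver, and the 1 tested, Neb, fell by 1.48 on the log2 scale (adjusted p = 0.0102, edgeR), a call that was lost without replicate 1 of either genotype and without Themis-KO replicate 2. The summed skeletal muscle level was 10.2 to 13.0 CPM in the WT livers and 4.22 to 5.43 CPM in the Themis-KO livers, which moved in the same direction as Tpm2, a gene that skeletal muscle also expresses. Without a filter on low counts, 4 of the 11 skeletal muscle genes had a positive fold change and the median was -0.19 (edgeR). Tpm2 itself had 321 to 524 counts in each liver. The part of such tissue in the Tpm2 value was not tested.

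Of 12 hepatocyte genes 3 fell, among them Cyp2e1 (log2 fold change -1.07, adjusted p = 0.0304, edgeR), and the summed level was 69076 to 76569 CPM against 54116 to 57962 CPM. Of 8 tested cholangiocyte genes Spp1 (1.44, adjusted p = 0.0131) and Cldn7 rose, and of 12 macrophage genes Gpnmb (1.97, adjusted p = 0.0194), Trem2 and Cd68 rose. Of 12 endothelial genes Lyve1 alone rose (0.86, adjusted p = 0.0131), with a median of 0.12. The hepatocyte and endothelial calls were lost whenever replicate 1 or 2 of either genotype was left out. Over the fits that left out a liver, the cholangiocyte count ran from 0 (without WT replicate 1 or 2) to 4 (without Themis-KO replicate 3), and the macrophage count from 0 (without WT replicate 1, WT replicate 2 or Themis-KO replicate 1) to 9 (without WT replicate 3). With the mitochondrial covariate none of the hepatocyte, cholangiocyte, macrophage or endothelial genes passed. The macrophage median was then 0.22 with 8 of 12 genes positive, against 0.65 and 11 without the covariate. The summed macrophage level was 381 to 625 CPM against 645 to 840 CPM, the cholangiocyte level 168 to 208 CPM against 400.4 to 632 CPM, and the endothelial level 358 to 391 CPM against 392 to 444 CPM. Their part in the values of the members was not tested.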

How the data were processed

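Poly(A) RNA of 6 livers was sequenced as read pairs. Per the labels and the paper's methods, the authors trimmed reads with cutadapt 2.3, mapped them to GRCm38 with STAR 2.7.8a and deposited 1 estimated count per gene and liver from RSEM 1.3.3. The deposited values are whole numbers and not normalized; the annotation release is not given in the sources used here. In R 4.3.3, edgeR 4.0.16 compared the genotype labels by its quasi-likelihood test after filterByExpr (10907 genes removed, 14496 kept) and TMM scaling, with no covariates and Benjamini-Hochberg adjustment over all genes kept. Fold changes are Themis-KO over WT. Levels are CPM after TMM scaling, and the common biological coefficient of variation was 0.157. The smallest chi-square per degree of freedom between 2 livers of a group was 9.80, well above the value near 1 that sampling noise gives. Nothing says that livers of a group came from separate litters, and p-values measure the spread between these livers. Coordinates and exon lengths came from GENCODE for GRCm38 and promoters from RefSeq. Fits were tested on simulated data. Alternatives were DESeq2 1.42.0, other scalings, other filters, a replicate block, a mitochondrial read type covariate and each liver left out, and list counts under them were added after the data were seen. The members and lists were chosen with earlier results of these data known. Named were all members and their paralogs, the most abundant genes of each list and its called gene of largest change. Filip1l, Myh11, Myocd, Ngfr, Nes, Lhx2, Angptl6, Mrtfb, Mcam, Cspg4, Higd1b, Cd34, Cldn7, Trem2 and Cd68 were named after their values were seen.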

Additional observations from a re-analysis of the deposited data

How the results depend on the processing

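Of 126 alternative values for the 9 tested members, 114 kept their direction and their side of the adjusted p threshold of 0.05, 10 passed it newly and 2 reversed. The reversed values were both of Reln, -0.0025 without WT replicate 3 and -0.059 without Themis-KO replicate 3, and its fold change ran from -0.059 to 0.11 over the livers left out. Stellate cell members that passed numbered 0, and 1 with total counts alone. Over all genes that scaling called 1449 higher and 387 lower, against 721 and 600 with TMM. Contractile members that passed numbered 0, then 1 with RLE size factors, 2 without a filter on low counts, 2 in DESeq2, and 0 to 3 with a liver left out. Over all genes, 691 were called higher and 630 lower with RLE size factors. Without the filter 1212 of 25403 genes were called higher and 967 lower. The difference between contractile and stellate cell members was -0.037, lay lowest at -0.11 when Themis-KO replicate 1 was left out, and reversed to 0.077 without WT replicate 1 and 0.058 without Themis-KO replicate 3, and to 0.042 with Cnn1 left out, a choice made after seeing the data. The cause of these changes was not tested.

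Livers of the same replicate number showed no shared deviation from their group means (correlations 0.000277, -0.241 and -0.157). With 3 livers a group, this cannot show that the livers were unpaired. The paper speaks of 3 pairs of livers and does not say whether the numbers mark them. With the replicate block, 0 members passed in edgeR, Acta2 being at 0.77 with an adjusted p of 0.193 and Tpm2 at -0.48 with 0.130, and over all genes 17 were called higher and 45 lower, against 721 and 600 without it. With the mitochondrial covariate 0 were higher and 3 lower over all genes, and DESeq2 called 1279 and 1090. With a liver left out, 8 and 12 were called without Themis-KO replicate 1, the lowest counts, and 2228 and 2039 without Themis-KO replicate 3, the highest. With 3 livers a group, no exact permutation p can fall below 0.1, and Cnn1 was too low for a test.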
